A study of Homo sapiens with 9 samples.

Results

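The 6 genes of signalling and translation described here, in leukaemia cells depleted of an RNA helicase, were CDK6, GNB1, PIP4K2A, EIF6, ELK1 and AKT2. They are the genes of this kind that the study of the helicase DHX34 names for a change of isoform, out of 58214 genes in the deposited quantification. All had at least 1 splicing event in the deposited event table of the DHX34 knockdown. The events of GNB1 and PIP4K2A were listed for the UPF1 knockdown as well, and the skipped exon of EIF6 for the UPF1 knockdown only. The values of the DHX34 knockdown against control therefore chose the members, and for all 6 genes they are given as a description without a test. The same holds for GNB1, PIP4K2A and EIF6 in the UPF1 knockdown. Tests are given for CDK6, ELK1 and AKT2 in the UPF1 knockdown, which was compared with the same control libraries. None of their events was listed for that knockdown, so a lack of isoform calls there was partly fixed by this choice.

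The cells were K562, an established human myelogenous leukaemia line (written K652 in some of the labels). Each of 3 groups held 3 libraries, all harvested on day 4 after the first siRNA transfection, with the same siRNAs transfected again on day 3. SCR received a non-targeting siRNA pool, the DHX34 knockdown an siRNA pool against DHX34, and the UPF1 knockdown siRNAs against UPF1. Poly(A)-enriched RNA was sequenced, and totals ran from 73478797 to 103625443 expected counts per library. DHX34 fell from 18.7 ± 0.671 to 9.98 ± 0.925 TPM in its knockdown (SD, n = 3; edgeR log2 fold change -1.23, adjusted p = 3.33e-07), and UPF1 from 49.2 ± 2.59 to 23.1 ± 0.168 TPM in its own (edgeR log2 fold change -1.31, adjusted p = 2.41e-10). TPM is a transcript abundance corrected for transcript length and scaled to a fixed sum per library. DHX34 knockdown replicate 3 stood apart from replicates 1 and 2 of its group, with a chi-square per gene of 34.7 and 30.7 against 7.19 between the other two, so the differences of the 6 genes and of the events described in full, and the count of list genes called, are also given without it below. Erythroid genes that define K562 were high in every library (GATA1 184 to 225 TPM, HBG2 7220 to 13200 TPM), while MS4A1 and KRT5, markers of B cells and basal epithelium, were listed at 0 throughout. The summed level of 8 such erythroid markers was 25500 to 27100 TPM in SCR, 23500 to 25600 TPM in the DHX34 knockdown and 15500 to 16700 TPM after UPF1 knockdown, and the part this has in the values of the 6 genes was not tested.

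CDK6 encodes a kinase that, with D-type cyclins, phosphorylates the retinoblastoma protein and lets cells leave G1. GNB1 encodes a beta subunit of heterotrimeric G proteins, PIP4K2A a lipid kinase that makes phosphatidylinositol 4,5-bisphosphate, and AKT2 a serine/threonine kinase downstream of phosphoinositide 3-kinase. ELK1 is a ternary complex factor that, with SRF, activates early response genes after MAP kinase signalling, and EIF6 keeps the large ribosomal subunit from joining the small one until it is released. An isoform can differ in its promoter and leader only, or in its protein. Nonsense-mediated decay (NMD), in which UPF1 is the core helicase and DHX34 an accessory one, removes transcripts whose stop codon lies well upstream of an exon junction.

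All 6 genes lie on the minus strand of GRCh38. CDK6 is at chr7:92604921-92836573, GNB1 at chr1:1785285-1892292, PIP4K2A at chr10:22534854-22714578, EIF6 at chr20:35278907-35284985, ELK1 at chrX:47635521-47650604 and AKT2 at chr19:40230317-40285536. For each gene the event whose transcripts had the most RNA is described in full. The events in CDK6, GNB1, PIP4K2A and AKT2 were alternative first exons, where a transcript starts at one or another exon and both splice into the same acceptor. The other two, in EIF6 and ELK1, were skipped exons. The 24 bases across each junction (12 on each side, 5′ to 3′) show where the forms part at the event; the transcript models of the forms also differ in length elsewhere. Capitals mark the alternative first exon in the first 8 sequences and the exon that follows the junction in the last 4.
CDK6-202: TGGGCCCCTCAGgtgcaatgattc
CDK6-201: AGGGAAAGAAAAgtgcaatgattc
GNB1-209: GAGGGCGCTGAGatctcacattct
GNB1-203: GAGCAATTAAATatctcacattct
PIP4K2A-202: GTAAACCACTCGatcaatgaactg
PIP4K2A-206: TCCCGTGTGCATatcaatgaactg
AKT2-206 and 3 others: TGCCGGTGACAGactgtgccctgt
AKT2-241: CCTCCTTCAGGAactgtgccctgt
EIF6, exon in: gcatgtgtgtggGGAACAGGCACG
EIF6, exon skipped: gcatgtgtgtggGAGACAGAAGAA
ELK1, exon in: cgctacacacagCCTCAACTTTCA
ELK1, exon skipped: cgctacacacagGTACCCCTGGGA

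All 12 sequences, read from the genome, were found in every GENCODE transcript of their own form and in none of the other form. Of the 12 introns, 11 began with GT and ended with AG, and the intron after the first exon of AKT2-241 began with GC. The ends of the first exons lay 132 bases apart in AKT2, 247 in PIP4K2A, 2605 in CDK6 and 58588 in GNB1. The skipped exon was 106 bases long in ELK1 and 176 in EIF6, neither a multiple of 3. The coding part began downstream of the junction in both forms of CDK6, GNB1 and AKT2, and in ELK1 it began downstream of the skipped exon. The first exon of PIP4K2A-202 held coding sequence and that of PIP4K2A-206 did not, and the annotated proteins of these transcripts had 406 and 347 codons.

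The 6 genes had 77 transcripts in the quantification, of which 40 reached a mean of 0.5 TPM over the 9 libraries. At the level of whole genes, the sum over transcripts is given in TPM and, for tests, as the log2 fold change that edgeR fitted to the summed expected counts. The scales differ: the median gene was 0.16 (DHX34 knockdown) and 0.20 (UPF1 knockdown) above SCR in a limma fit to log2 TPM, against 0.02 in both edgeR fits. On the TPM scale 38.7% of all genes lay wholly above SCR in the DHX34 knockdown and 47.2% after UPF1 knockdown, so a gene above SCR in TPM is the common case. Values that did not overlap SCR in either direction were found for 44.4% and 54.0% of genes.

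**Figure D1:**
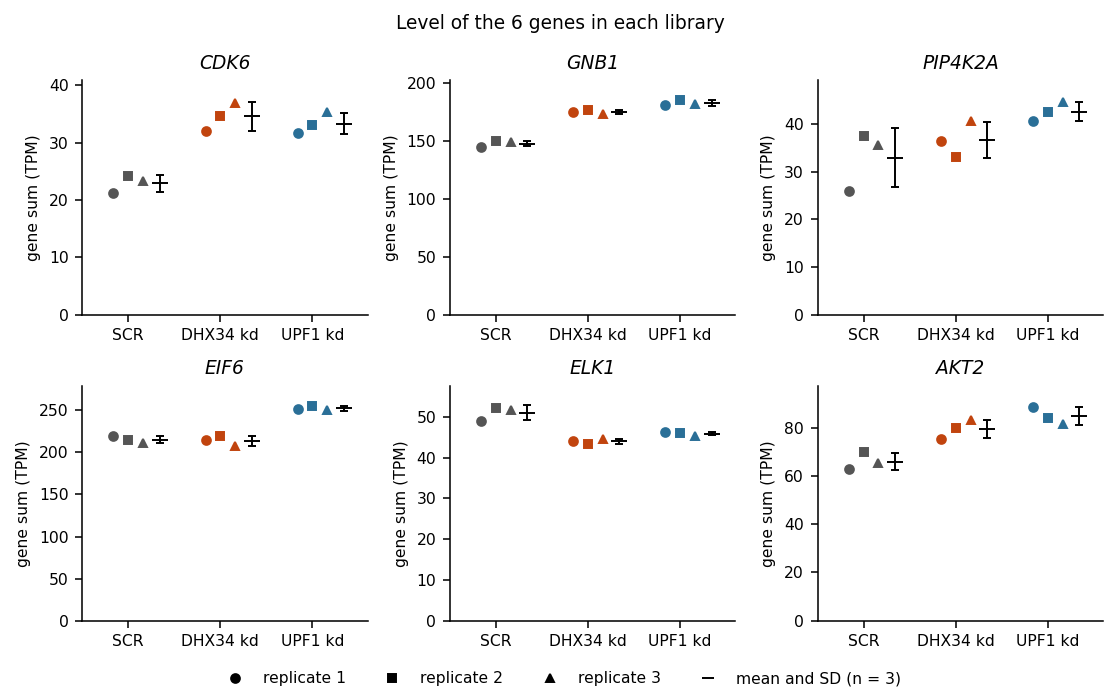
Gene sums in TPM (y axis, from 0) in each of the 9 libraries, by group (x axis; kd, knockdown), with the mean and SD of 3 libraries beside each group. CDK6 lay at 21.2 to 24.1 TPM in SCR and at 31.7 to 37 TPM in the knockdowns, whereas ELK1 was lower in both knockdowns than in SCR.

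CDK6 stood at 21.2, 24.1 and 23.3 TPM in SCR replicates 1 to 3, at 32.0, 34.7 and 37 TPM in the DHX34 knockdown and at 31.7, 33.0 and 35.2 TPM after UPF1 knockdown. Every knockdown library was above every SCR library. In the UPF1 knockdown CDK6 was called higher, one of 12.4% of genes called in that direction and 12.9% called lower, with an edgeR log2 fold change of 0.23 ± 0.042 (SE) and an adjusted p of 0.000852 at a threshold of 0.005, where 25.3% of 17184 genes were called. Without UPF1 knockdown replicate 3 the adjusted p was 0.00593 in edgeR, which missed the threshold. In the DHX34 knockdown the edgeR log2 fold change was 0.21 ± 0.045 (SE).

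ELK1 moved the other way. It stood at 49.0, 52.3 and 51.8 TPM in SCR, at 44.2, 43.5 and 44.6 TPM in the DHX34 knockdown and at 46.3, 46.0 and 45.5 TPM after UPF1 knockdown, with no overlap between SCR and either knockdown. On the edgeR scale ELK1 fell by 0.36 on the log2 scale in the UPF1 knockdown (SE 0.032, adjusted p = 3.92e-06), and the log2 fold change in the DHX34 knockdown was -0.38 ± 0.046 (SE). With limma on log2 TPM the value in the UPF1 knockdown was -0.15, beside 0.20 for the median gene, with an adjusted p of 0.0113, which missed the threshold. Only 6.81% of all genes lay wholly below SCR in TPM in that comparison.

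AKT2 stood at 63.0, 69.7 and 65.2 TPM in SCR, at 75.4, 79.9 and 83.0 TPM in the DHX34 knockdown and at 88.7, 84.2 and 81.7 TPM after UPF1 knockdown. All 6 knockdown libraries were above SCR in TPM, but the edgeR log2 fold change in the UPF1 knockdown was 0.05 ± 0.027 (SE, adjusted p = 0.166), and AKT2 was not called. With limma on log2 TPM it was called, at a log2 fold change of 0.36 and an adjusted p of 0.00105. In the DHX34 knockdown the edgeR value was 0.00 and that from log2 TPM 0.27.

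GNB1 was at 144.8, 149.3 and 148.6 TPM in SCR, at 174.7, 176.3 and 172.8 TPM in the DHX34 knockdown and at 180.8, 185.1 and 181.5 TPM after UPF1 knockdown. Both knockdowns were above SCR in TPM, by 0.24 and 0.31 on the log2 scale, and the edgeR log2 fold change was 0.01 in both. PIP4K2A was at 25.9, 37.4 and 35.5 TPM in SCR, at 36.3, 33.0 and 40.5 TPM in the DHX34 knockdown and at 40.6, 42.4 and 44.5 TPM after UPF1 knockdown. SCR replicate 1 was the low library, and the DHX34 knockdown overlapped SCR. The edgeR log2 fold changes of PIP4K2A were -0.10 ± 0.037 and -0.01 ± 0.031 (SE). EIF6 was at 219.9, 214.6 and 211.1 TPM in SCR and at 214.6, 219.9 and 207.9 TPM in the DHX34 knockdown, which overlapped, with an edgeR log2 fold change of -0.15 ± 0.047 (SE). In the UPF1 knockdown EIF6 was at 251.4, 255.8 and 250.3 TPM, above SCR, with an edgeR log2 fold change of -0.02 ± 0.028 (SE). Without DHX34 knockdown replicate 3 the edgeR log2 fold changes in that knockdown were 0.19 for CDK6, -0.34 for ELK1, 0.03 for GNB1, -0.09 for PIP4K2A, -0.09 for EIF6 and 0.00 for AKT2. In order of TPM in SCR, EIF6 and GNB1 were the most abundant, followed by AKT2, ELK1, PIP4K2A and CDK6. No neighbours in that order overlapped in SCR or in the UPF1 knockdown, and in the DHX34 knockdown PIP4K2A and CDK6 did.

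Within genes, the share of each transcript is its part of the gene's TPM. In the DHX34 knockdown 13 of 38 transcripts of the 6 genes that passed the filter on low values had shares that did not overlap those of SCR (6 above, 7 below), where 19.4% of all 40204 transcripts did so; the genes were chosen on this contrast and nothing is read from that count. For CDK6, ELK1 and AKT2 in the UPF1 knockdown, 6 of 21 transcripts did not overlap SCR, beside 27.8% of 41594 over all genes. None of these 21 passed the limma test of shares at an adjusted p of 0.05, and 3 had an unadjusted p under 0.05. With edgeR's diffSpliceDGE on expected counts, none of 19 was called. CDK6, ELK1 and AKT2 were tested because no event of theirs was listed for the UPF1 knockdown. That choice favours a lack of calls, and nothing is read from it. Over all genes limma called 3.51% of transcript shares (1462), diffSpliceDGE called 844, and limma with the replicate number as a block called 0, with 7783 at an unadjusted p under 0.05.

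**Figure D2:**
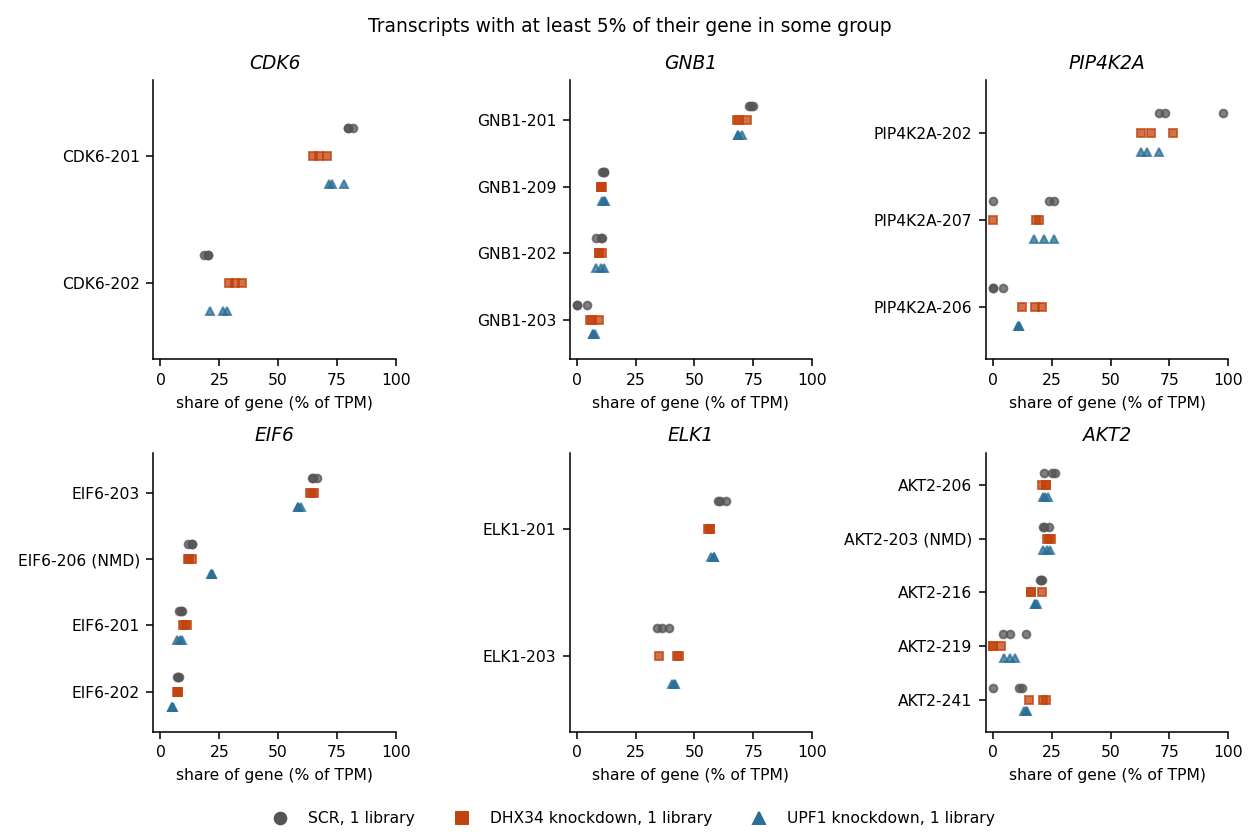
Share of the gene's TPM (x axis, percent) for each transcript with at least 5% of its gene in some group (y axis), 1 point per library; NMD marks the annotated decay biotype. EIF6-206 lay at 11.8 to 13.5% outside the UPF1 knockdown and at 21.6 to 21.8% within it, and GNB1-203, PIP4K2A-206 and AKT2-241 each had SCR libraries at 0.

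CDK6 was made up of CDK6-201 and CDK6-202, which both encode 326 codons and differ in their noncoding first exon. The deposited lengths also differed, 11612 and 1465 bases, so that in the quantification CDK6-202 lacked the long 3′ end that GENCODE now gives it (11663 bases). CDK6-202 held 20.1, 20.2 and 18.3% of the event in SCR, 29.3, 35.0 and 32.0% in the DHX34 knockdown and 21.4, 26.6 and 28.2% in the UPF1 knockdown. All 6 knockdown libraries were above SCR, with UPF1 knockdown replicate 1 the nearest. The mean difference was 12.5 points in the DHX34 knockdown (12.6 without its replicate 3) and 5.8 points in the UPF1 knockdown, where the exact two-sided permutation test gave p = 0.10, the smallest that 3 against 3 libraries allow. With libraries paired by replicate number, the exact permutation within pairs gave p = 0.25 for CDK6, ELK1 and AKT2 alike, the smallest that 3 pairs allow. CDK6-202 had 388, 429 and 480 expected counts in SCR, 1107, 1056 and 1100 in the DHX34 knockdown and 572, 935 and 1161 in the UPF1 knockdown. CDK6-201 carried most of the reads, 12424 to 23708 expected counts, and by counts instead of TPM CDK6-202 made up 2.9% in SCR, 5.7% in the DHX34 knockdown and 4.1% after UPF1 knockdown.

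GNB1 was dominated by GNB1-201, at 73.1 to 75.0% of the gene in SCR, 68.2 to 72.2% in the DHX34 knockdown and 68.5 to 70.3% after UPF1 knockdown. In the GENCODE sequences GNB1-201 had no 31-base stretch that other GNB1 transcripts lack. The event concerned lesser starts: GNB1-209, a full-length transcript of 340 codons, and GNB1-203, a model of 423 bases with 107 annotated codons. GNB1-209 took 71.1, 100 and 100% of the pair in SCR, 61.6, 51.8 and 65.9% in the DHX34 knockdown and 60.9, 63.6 and 59.6% in the UPF1 knockdown. SCR replicate 1 was the low control library and still above all 6 knockdown libraries. The shift was in GNB1-203, listed at 79, 0 and 0 expected counts in SCR, at 186, 192 and 120 in the DHX34 knockdown and at 147, 185 and 228 after UPF1 knockdown. GNB1-209 itself held 10.7 to 11.7% of the gene in SCR and 10.1 to 11.8% in the knockdowns, on 3211 to 5559 expected counts. A transcript as short as GNB1-203 gains TPM from few reads: by counts GNB1-209 was 99.2% of the pair in SCR, 96.1% in the DHX34 knockdown and 96.3% after UPF1 knockdown. Without DHX34 knockdown replicate 3 the difference in TPM was -33.6 points, beside -30.6 with it.

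PIP4K2A showed the same form of listing. PIP4K2A-206 had 0, 130 and 0 expected counts in SCR, 493, 555 and 627 in the DHX34 knockdown and 356, 461 and 523 in the UPF1 knockdown, so that all knockdown libraries were above SCR replicate 2, the only control above 0. The longer PIP4K2A-202 spanned less, at 25.3, 26.3 and 25.8 TPM in SCR, 24.3, 25.3 and 25.5 TPM in the DHX34 knockdown and 28.6, 27.8 and 28.1 TPM in the UPF1 knockdown. Its part of the pair was 100, 94.3 and 100% in SCR, 84.5, 78.7 and 78.2% in the DHX34 knockdown and 86.6, 85.8 and 85.6% in the UPF1 knockdown. The mean differences were -17.7 points (-16.5 without DHX34 knockdown replicate 3) and -12.1 points, and by counts -7.2 and -4.7 points. Another transcript, PIP4K2A-207 of 443 bases, was listed at 0 in SCR replicate 1 and in DHX34 knockdown replicate 2 and at 7.0 to 11.5 TPM elsewhere, and it had no 31-base stretch that other PIP4K2A transcripts lack. The low gene sum of SCR replicate 1 went with this listing: PIP4K2A-202 alone was 97.8% of the gene there.

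AKT2 had the most transcripts, 17 of 42 at a mean of 0.5 TPM, and 9 distinct pairs of first exons among its 12 listed events. All entered the same acceptor at position 40265351 of chromosome 19. The pair with the most RNA set AKT2-206 and 3 transcripts of the same start against AKT2-241, a model of 583 bases whose first exon ends 132 bases downstream. AKT2-241 was at 0.0, 7.76 and 8.02 TPM in SCR, at 11.5, 18.0 and 17.4 TPM in the DHX34 knockdown and at 13.0, 11.2 and 11.5 TPM after UPF1 knockdown. The start of AKT2-206 was at 17.1, 16.5 and 17.7 TPM in SCR, 16.4, 18.3 and 19.1 TPM in the DHX34 knockdown and 21.0, 20.3 and 19.7 TPM in the UPF1 knockdown. Its part of the pair was 100, 68.0 and 68.8% in SCR, 58.8, 50.4 and 52.3% in the DHX34 knockdown and 61.8, 64.5 and 63.1% in the UPF1 knockdown. Neither knockdown overlapped SCR, and SCR replicate 1, where AKT2-241 was listed at 0, stood far from the other controls. The mean differences were -25.1 points (-24.3 without DHX34 knockdown replicate 3) and -15.8 points, and without SCR replicate 1 they were -14.6 and -5.3 points; the exact permutation test of the UPF1 knockdown gave p = 0.10, the smallest possible. By counts AKT2-206 and its companions were 98.0, 94.7 and 96.2% of the pair in the 3 groups.

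A further AKT2 start, AKT2-219 (606 bases), was at 8.90, 2.87 and 4.72 TPM in SCR, at 2.45, 0.0 and 0.0 TPM in the DHX34 knockdown and at 8.21, 5.89 and 3.71 TPM after UPF1 knockdown. The DHX34 knockdown lay below SCR and the UPF1 knockdown overlapped it. These values rest on 73 to 234 expected counts in SCR. The other 8 pairs of AKT2 starts combined AKT2-241, AKT2-219, AKT2-206 and rarer starts of at most 215 expected counts, so they share transcripts and are not separate observations. AKT2-203, an annotated NMD transcript, has 69 codons, and its coding part ends 983 bases before its last junction. It held 21.3 to 23.7% of the gene in SCR, 22.8 to 24.4% in the DHX34 knockdown and 21.4 to 24.3% after UPF1 knockdown, all overlapping. In the GENCODE sequences it had no 31-base stretch that other AKT2 transcripts lack.

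In ELK1, inclusion of the 106-base exon, upstream of the coding start, was 35.8, 38.6 and 39.6% in SCR, 42.9, 43.9 and 42.7% in the DHX34 knockdown and 42.6, 41.5 and 40.9% in the UPF1 knockdown. Both knockdowns were above SCR, by 5.2 points (5.4 without DHX34 knockdown replicate 3) and 3.7 points on average, and the exact permutation test of the UPF1 knockdown gave p = 0.10. The form with the exon had 2543 to 3824 expected counts and the form without it 4237 to 7097. By counts the DHX34 knockdown overlapped SCR (34.7 to 39.2% against 30.8 to 35.0%), while the UPF1 knockdown, at 36.3 to 37.6%, did not. The shift lay in the skipping form: ELK1-201 was at 31.1, 31.9 and 31.2 TPM in SCR, at 25.0, 24.2 and 25.4 TPM in the DHX34 knockdown and at 26.5, 26.8 and 26.6 TPM after UPF1 knockdown. ELK1-203, which holds the exon, was at 16.7 to 20.4 TPM in SCR, 15.6 to 18.9 TPM in the DHX34 knockdown and 18.4 to 19.3 TPM after UPF1 knockdown, overlapping throughout. Both transcripts encode 428 codons. In the GENCODE sequences ELK1-203 had no 31-base stretch that other ELK1 transcripts lack. ELK1-202 was listed above 0 in 4 of the libraries and reached 3.35 TPM in DHX34 knockdown replicate 3, the only DHX34 knockdown library in which it was above 0. ELK1-202 also holds the exon, and the place of that library above SCR rested on it. The share of ELK1-203 in the gene was 42.6, 43.5 and 34.9% in the DHX34 knockdown, which overlapped SCR at 34.0 to 39.4%. After UPF1 knockdown it was 40.6 to 41.7%, above SCR.

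**Figure D3:**
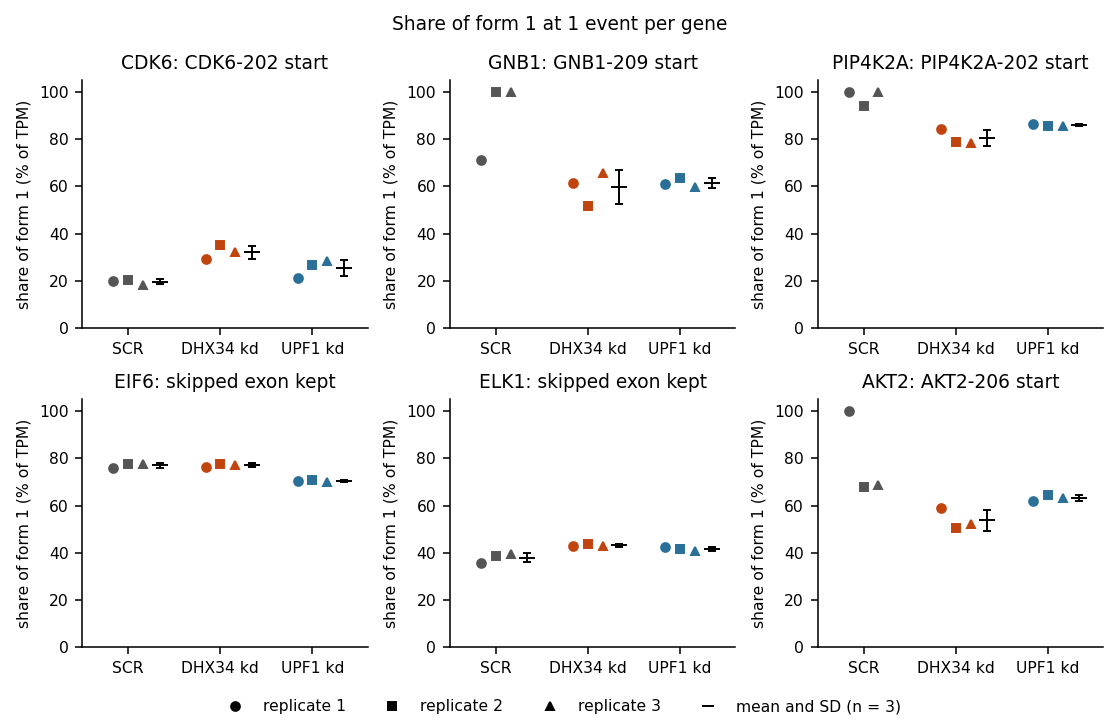
Share of the form named above each panel (y axis, percent of the TPM of both forms) in each library by group (x axis; kd, knockdown), with the mean and SD of 3 libraries except in groups with a library at 100%. The CDK6 and ELK1 shares were higher and the GNB1, PIP4K2A and AKT2 shares lower in both knockdowns than in SCR, while EIF6 was lower in the UPF1 knockdown (70.2 to 70.7%) and overlapped SCR in the DHX34 knockdown.

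EIF6 had its skipped exon listed for the UPF1 knockdown and not for the DHX34 knockdown. Inclusion of the 176-base exon was 75.9, 77.6 and 77.7% in SCR, 76.5, 77.8 and 77.4% in the DHX34 knockdown and 70.3, 70.7 and 70.2% in the UPF1 knockdown. The DHX34 knockdown overlapped SCR, with a mean difference of 0.1 points (0.0 without DHX34 knockdown replicate 3), and the UPF1 knockdown lay 6.7 points below it. EIF6-206, one of the transcripts that skip the exon, is annotated as an NMD target: it has 108 codons and its coding part ends 228 bases before its last junction. EIF6-206 was at 29.2, 28.8 and 24.9 TPM in SCR, 29.0, 26.3 and 25.2 TPM in the DHX34 knockdown and 54.8, 55.7 and 54.1 TPM in the UPF1 knockdown. On the TPM scale this was 27.6 ± 2.37 against 54.9 TPM on average in SCR and the UPF1 knockdown, and 26.8 TPM in the DHX34 knockdown. EIF6-202, which skips the exon and encodes 226 codons, was lower in the UPF1 knockdown at 12.1 to 13.2 TPM than in SCR at 15.3 to 16.4 TPM. EIF6-203, the main transcript of 245 codons, held 64.3 to 66.4% of the gene in SCR, 63.4 to 65.2% in the DHX34 knockdown and 58.6 to 59.9% after UPF1 knockdown. In the GENCODE sequences EIF6-206 had only 7 stretches of 31 bases found in no other EIF6 transcript. EIF6-202, EIF6-203 and EIF6-204 had none. The quantified model of EIF6-203 was longer, at 1289 bases against 1069 in GENCODE, so this count does not cover all of it. How far these levels rest on the sharing of reads between transcripts was not tested. The other annotated NMD transcripts of EIF6 overlapped SCR in both knockdowns by share: EIF6-204 was at 1.9 to 4.3 TPM in SCR, and EIF6-205 had a mean of 2.29 TPM there.

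EIF6 also had an alternative last exon listed for the DHX34 knockdown, which sets EIF6-208 against EIF6-207. EIF6-208 took 68.7, 53.4 and 63.9% of the pair in SCR, 97, 85.5 and 78.8% in the DHX34 knockdown and 93.5, 80.1 and 64.5% in the UPF1 knockdown. The DHX34 knockdown lay above SCR, by 25.1 points (29.2 without its replicate 3), and the UPF1 knockdown overlapped it. The counts were small: EIF6-207 had 60, 54 and 75 expected counts in SCR, 5, 23 and 35 in the DHX34 knockdown and 8, 38 and 100 in the UPF1 knockdown.

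**Figure D4:**
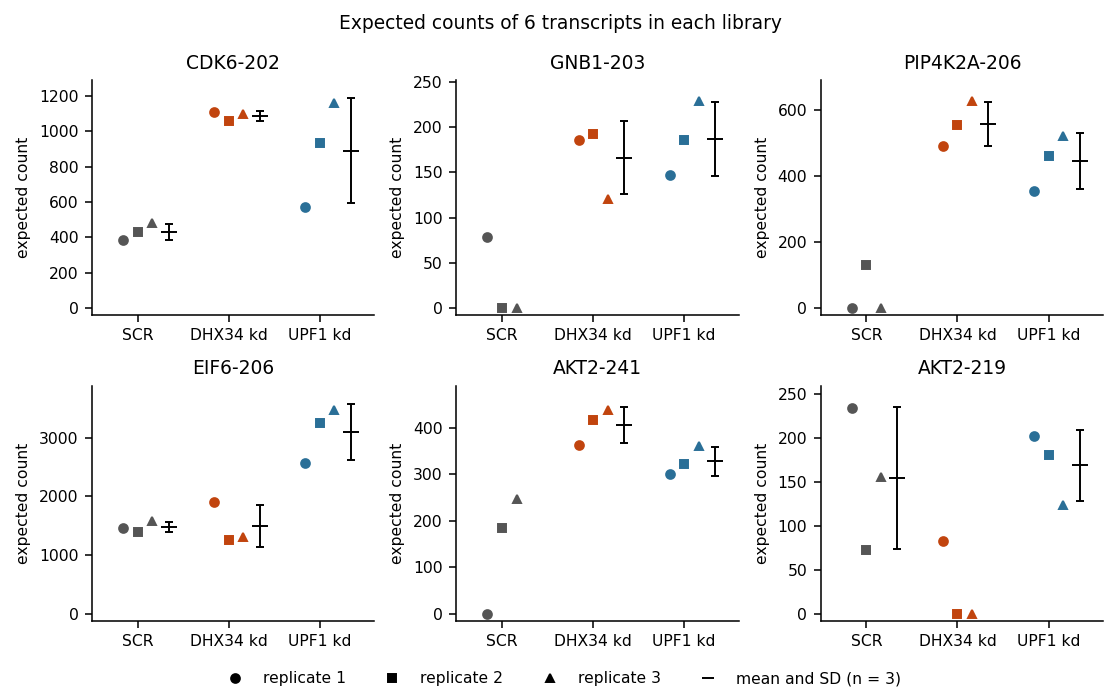
Expected counts (y axis) of 6 transcripts in each library by group (x axis; kd, knockdown), not scaled for library totals, with the mean and SD of 3 libraries except in groups with a library at 0. GNB1-203, PIP4K2A-206 and AKT2-241 had 1 or more SCR libraries at 0 and all 6 knockdown libraries above 0, and AKT2-219 had DHX34 knockdown replicates 2 and 3 at 0.

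GNB1-203 and PIP4K2A-206 belonged to the transcripts listed at 0 in at least 2 SCR libraries and above 0 in every knockdown library. Over all genes 0.987% of transcripts met this in the DHX34 knockdown and 1.23% after UPF1 knockdown. Expected counts depend on how reads were divided among near-identical models, and the part of that division in these listings was not tested.

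The pathways around the 6 genes were followed through 120 genes in 6 lists, of which 112 were tested in each comparison. In the DHX34 knockdown edgeR called 9 higher and 8 lower at an adjusted p of 0.005 (15.2%, beside 10.4% of 17004 genes, 5.54% higher and 4.86% lower), where DESeq2 called 29. Without DHX34 knockdown replicate 3 edgeR called 18, among them 16 of these 17, and MRTFB missed the threshold (adjusted p = 0.00519). Without SCR replicate 3 it called 11. In the UPF1 knockdown edgeR called 16 higher and 21 lower (33.0%, beside 25.3%). The median log2 fold change over the lists was 0.01 and -0.01, beside 0.02 for all genes in both. The lists are described below with the edgeR values, and the SCR libraries are shared by the comparisons.

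Of the 19 tested partners of CDK6 in the cyclin D and RB list, 2 were higher and 1 lower in the DHX34 knockdown, and 3 were higher and 3 lower in the UPF1 knockdown. CCND2, a D-type cyclin that activates CDK4 and CDK6, had log2 fold changes of -0.55 ± 0.044 (SE, adjusted p = 1.72e-05) and -0.52 ± 0.044 (adjusted p = 2.79e-06). The more abundant CCND3 (191 TPM in SCR, beside 11.8 TPM for CCND2) was not called in either knockdown (0.01 and -0.02). CCND1, at 2.6 TPM in SCR, was not called either (0.30 and 0.09). CDKN1A, the CDK inhibitor p21, rose by 0.75 and 0.70 on the log2 scale. E2F2 rose by 0.30 and 0.23 and was called higher in both knockdowns. RBL1, an RB relative, rose by 0.24 after UPF1 knockdown. CDK4 was called lower by edgeR in the UPF1 knockdown at a log2 fold change of -0.17 but lay above SCR in TPM (335 against 291 TPM).

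Of 21 G protein genes tested, 0 were higher and 1 lower in the DHX34 knockdown and 1 was higher and 3 lower in the UPF1 knockdown. GNG5, a gamma subunit that pairs with beta subunits such as GNB1, fell by 0.30 and 0.42 on the log2 scale. In the UPF1 knockdown GNG10, another gamma subunit, fell by 0.49 and GNAI2 by 0.22, the latter overlapping SCR in TPM, and GNA11 rose by 0.36. Of the 13 other phosphoinositide kinases, edgeR called none in the DHX34 knockdown and 3 higher in the UPF1 knockdown: PIP4K2B (0.24) and PIP4K2C (0.19), the paralogs of PIP4K2A, and PIK3C2A (0.26).

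In the list of PI3K-AKT genes, 6 of 28 were higher and 1 lower in the DHX34 knockdown, and 6 were higher and 2 lower in the UPF1 knockdown. INPP5D, the lipid phosphatase SHIP1 of blood cells, had 0.871 ± 0.293 TPM in SCR and 2.93 ± 0.315 TPM after DHX34 knockdown (SD, n = 3). Its edgeR log2 fold change was 1.91 ± 0.13 (SE, adjusted p = 6.84e-06), and it was not called in the UPF1 knockdown (0.03, adjusted p = 0.92). INPP4A, another inositol phosphatase, rose by 0.72 and 0.56, and PIK3R2 by 0.18 in the DHX34 knockdown. PIK3CG, the catalytic subunit that G protein beta-gamma dimers activate, was called in opposite directions, at 0.62 ± 0.047 in the DHX34 knockdown (adjusted p = 1.36e-05) and -0.49 ± 0.052 in the UPF1 knockdown (adjusted p = 1.44e-05). RHEB, the GTPase that activates mTOR, fell by 0.30 and 0.25, and PDPK1, the kinase that phosphorylates AKT, rose by 0.30 in the UPF1 knockdown.

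Around ELK1, 1 of 15 genes was higher and 0 lower in the DHX34 knockdown, and 2 were higher and 4 lower in the UPF1 knockdown. EGR1, an early gene driven by SRF and ternary complex factors, was at 17.0 ± 2.44 TPM in SCR and 8.49 ± 0.777 TPM after UPF1 knockdown. Its edgeR log2 fold change was -1.21 ± 0.095 (SE, adjusted p = 1.7e-06), and its value in the DHX34 knockdown, -0.44, was not called (adjusted p = 0.00755). JUNB fell by 0.46 in the UPF1 knockdown. MRTFB, a coactivator of SRF, rose by 0.47 in the DHX34 knockdown and by 0.35 in the UPF1 knockdown.

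The list around EIF6 held 16 factors and proteins of the late 60S subunit. None was called higher and 5 lower in the DHX34 knockdown, and 1 was higher and 9 lower in the UPF1 knockdown, with median log2 fold changes of -0.18 and -0.15. In TPM, 4 of those 9 lay below SCR, 3 overlapped it and 2, MRTO4 and RSL24D1, lay above it. SBDS, which helps to release EIF6 from the subunit, fell by 0.22 in the DHX34 knockdown, overlapping SCR in TPM, and was not called in the UPF1 knockdown (-0.09). MRTO4 had -0.21 in the DHX34 knockdown. After UPF1 knockdown its edgeR value was -0.15, at 154 TPM against 148 TPM in SCR. RPL23, to which EIF6 binds, fell by 0.31 and 0.37, and RPL24, beside it, fell by 0.40 in the UPF1 knockdown. RSL24D1 fell by 0.36 in the DHX34 knockdown. After UPF1 knockdown edgeR called it lower (-0.14) while it lay above SCR in TPM. NLE1 rose by 0.29 in the UPF1 knockdown.

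**Figure D5:**
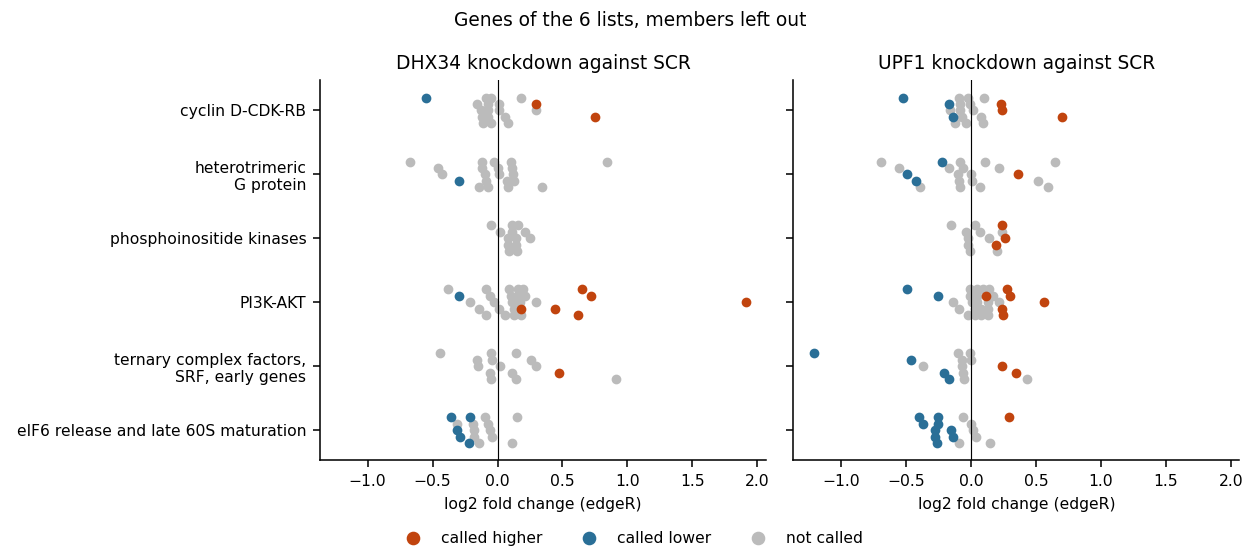
Log2 fold change from edgeR (x axis) of the tested genes of the 6 lists (y axis), 1 point per gene, spread vertically for legibility; colour shows the call at an adjusted p of 0.005. In the 60S list 9 of the 10 genes called in the UPF1 knockdown lay below 0, and INPP5D, at 1.91, was the rightmost point of the DHX34 panel.

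The genes whose pattern over the 9 libraries was most like each member were taken by the root mean square difference of log2 CPM (counts scaled to the library total) relative to the SCR mean, among 10063 genes. They were NDST1 and HIPK1 for CDK6 (both 0.031), EPRS1 (0.016) and ZNF496 (0.019) for GNB1, and CDYL (0.020) and CTCF (0.022) for PIP4K2A. For EIF6 they were POLR3K (0.019) and UFD1 (0.022), for AKT2 MAP3K7 (0.025) and VRK2 (0.026), and for ELK1 the ribosomal protein genes RPL38 (0.036) and RPL35A (0.037).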

How the data were processed

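Poly(A) RNA-seq was measured in 9 K562 libraries. The authors quantified each library with Salmon, with GC-bias correction, against Ensembl GRCh38 cDNA; the deposited tables give an expected count (estimated, not whole) and a TPM per transcript. The deposited event tables, made with SUPPA2, were used for event coordinates; their differences and p-values, and the deposited sleuth tables of p-values and effects, were not used. The members and the gene lists were chosen with earlier results of these data known.

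Transcript identifiers were matched to release 44 of GENCODE (198775 of 203027, 97.9%); 67 of the 77 transcripts of the 6 genes, and 31 of the 40 at or above 0.5 TPM, had the same length in both annotations. Expected counts were summed per gene, rounded and tested with edgeR 4.0.16 (quasi-likelihood, TMM, filterByExpr with a minimum count of 10, Benjamini-Hochberg adjusted p of at most 0.005) on the 6 libraries of each comparison. Transcript shares were tested with limma 3.58.1 on log2 ratios of TPM with a pseudocount of 0.5, for transcripts with a mean of at least 0.5 TPM, at an adjusted p of 0.05. Event shares were computed from TPM over the GENCODE transcripts that carry each junction and compared by exact two-sided permutation (SciPy 1.17.1); alternatives used expected counts, other filters, DESeq2 1.42.0, length-scaled counts, and left out each library. The fits were tested on simulated counts with known changes. These were drawn without replicate pairing or reads shared between transcripts, so the simulation cannot speak to either. Named list genes, apart from CCND1 and CCND3, were those called with the 2 largest and 2 smallest log2 fold changes per list and comparison. 1 gene that met this rule is counted in its list and not reported here by name.

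Same-numbered SCR and UPF1 knockdown libraries deviated together (r = 0.509, 0.145 and 0.311, all over 0.1), so the numbers were taken to pair them. Unlike-numbered libraries had r from -0.38 to 0.225, the highest for SCR replicate 3 with UPF1 knockdown replicate 2. The study's methods use no block, and the main fits here use none. p-values measure the spread between libraries. All replicate pairs differed beyond sampling noise. Precision is limited by 3 libraries a group and, for short transcripts, by low expected counts.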

Additional observations from a re-analysis of the deposited data

How the results depend on the processing

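The number of genes called in the UPF1 knockdown was 4345, and 6917 at an adjusted p of 0.05, 2807 with length-scaled counts, and 3187 to 3733 when each library was left out. In the DHX34 knockdown it was 1768, and 4403 at an adjusted p of 0.05, 3034 with DESeq2, 771 with length-scaled counts, 915 with limma on log2 TPM, 3396 without a filter and 781 to 1785 when each library was left out. Of the called genes 53.3% and 49.0% were higher in the DHX34 and UPF1 knockdowns, and 87.8% and 91.8% with limma on log2 TPM. Genes of the lists called in the DHX34 knockdown numbered 17, and 38 at an adjusted p of 0.05, 29 with DESeq2 and 11 to 18 when each library was left out, an alternative chosen after seeing the data, as was the permutation within pairs. Transcript shares called in the UPF1 knockdown numbered 1462, 844 with diffSpliceDGE and 208 to 596 when each library was left out.

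With the replicate number as a block, 0 transcript shares were called in the UPF1 knockdown (limma; edgeR called 4345 genes, the count without the block too), and the pairing changed no call of CDK6, ELK1 or AKT2. In the DHX34 knockdown, where same-numbered libraries did not deviate together (r from -0.402 to -0.068), the block left 1007 genes, and MRTFB, MRTO4, PIK3R2 and SBDS missed the threshold (edgeR adjusted p of 0.00597, 0.00996, 0.016 and 0.00649).

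Differences between event shares that turned sign were those of EIF6 exon inclusion in the DHX34 knockdown (0.1 points; -0.5 without SCR replicate 1 and -0.2 without DHX34 knockdown replicate 2) and of 3 other AKT2 pairs in the UPF1 knockdown (ranges of -4.2 to 5.4, -2.9 to 42.3 and -0.5 to 36.0 points, the lowest of each without SCR replicate 1; the first was -2.0 without UPF1 knockdown replicate 3); the cause was not tested. The 4 pairs of AKT2-241 or AKT2-219 with the rarest starts had no value without transcripts under 0.5 TPM.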
